A study of Mus musculus with 2 samples.

Results

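The tissue kallikreins of mouse skin and their inhibitor *Spink5* were followed across 4 skin sections and across the layers of the tissue. The set holds 10 of the 19465 genes in the count files: the 9 kallikrein genes *Klk5*, *Klk6*, *Klk7*, *Klk8*, *Klk9*, *Klk10*, *Klk11*, *Klk13* and *Klk14*, and *Spink5*. The members were taken by gene symbol, and all 10 were found. Another 14 genes with kallikrein names stand in the files and are not members. The skin came from female SKH-1 mice, a hairless outbred stock, aged 10 to 12 weeks. One section carried skin exposed to ultraviolet radiation (UVR) that also received 9-cis HPR at 0.03%, written HPR below. The second was UVR-exposed and treated with 0.1% retinol, the third was exposed to UVR with no named treatment, and the last was normal control skin. The labels give neither the UVR dose, nor the times of exposure and treatment, nor the number of animals behind a section. No vehicle group is named, so treatment and vehicle cannot be told apart.

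Kallikreins are secreted serine proteases, made as inactive precursors by the upper living layers of the epidermis and released into the stratum corneum. There KLK5 and KLK7, with KLK14, cut the proteins of corneodesmosomes, the rivets between dead cells, so that the skin surface is shed. The protein of *Spink5*, LEKTI, holds these proteases in check, and its loss in people causes Netherton syndrome, a disorder of excessive shedding and a leaky barrier.

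Transcripts were captured with gene-specific probes on Visium slides, whose barcoded spots each cover several cells or parts of cells. Values are counts of unique molecular identifiers (UMIs), scaled to counts per 1000000 UMIs (CPM) of a section or region. Probes differ in how well they bind, so levels are compared between sections for 1 gene and not between genes. A spot needed 200 UMIs to be used, which left 644 of 984 in UVR plus HPR skin, 544 of 787 in UVR plus retinol skin, 647 of 939 in UVR skin and 339 of 465 in control skin. They held 1249928, 1414976, 2558616 and 326095 UMIs in that order, so control skin was the shallowest section. With 1 section per group there was no replicate and no test. The 95% intervals given here (exact Poisson for a level, exact Clopper-Pearson for a ratio or a share) cover counting error only. Both treated sections lay on 1 capture area, and the UVR and control sections on the other. The area therefore cannot be told apart from treatment when a treated section is set against UVR skin. The 2 areas share 430 of their 1771 and 1404 spot barcodes, which name positions on the spot grid and not cells. Groups were read from "upper" and "lower" in the labels as positions in the image. The spot grid runs the other way, and reading it instead would exchange the groups on each area turn every UVR-to-control direction below and change the treated comparisons too.

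Spots were clustered on genes that excluded all members. A pair of regions formed the outer, epidermal side of each section. One was led by *Lor*, *Crct1*, *Flg* and *Hrnr*, genes of the cornified cell, and is called the *Lor* region. The other was led by *Cntfr*, *Ticrr*, histone genes and the replication gene *Mcm2*, and is called the *Cntfr* region. Inside them lay middle regions with collagen, immunoglobulin and macrophage genes, then muscle regions, and a small region rich in *Scd1*. All 11 keratinocyte markers, among them *Krt5*, *Krt14* and *Krt10*, were detected in the outer regions of every section. Their summed level was 33460.7 CPM in UVR plus HPR skin, 37014.5 CPM in UVR plus retinol skin, 61750.4 CPM in UVR skin and 32971.7 CPM in control skin. The outer regions held 229, 204, 282 and 96 spots in the same order, and their share of all UMIs was 80.6%, 83.5%, 83.4% and 55.4%. Only 16 control spots fell in the *Cntfr* region, against 123 in each treated section and 191 in UVR skin. In such summed counts, fewer cells of a type and less RNA per cell cannot be told apart.

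The 9 kallikrein genes form 1 cluster on mouse chromosome 7. In GRCm38.p6, the assembly also known as mm10, they lie between 43680880 and 43851181, a span of 170.3 kb, with *Klk14* at the left end and *Klk5* at the right end. The 1 other protein-coding gene inside that span is *Klk12*, with 2 UMIs over all 4 sections together. RefSeq's promoter table for GRCm38.p6 matched all 9 kallikreins, with 11 annotated starts, since *Klk6* and *Klk11* have 2 each. The 250 bases before the start are shown for *Klk8* and *Klk10*, the pair that was lower in both treated sections, and for *Klk6*, which was not. Capitals mark CACCC on either strand, a box bound by KLF factors, 5′ to 3′ on the strand of the gene.
*Klk8*, chr7:43797327-43797576, + strand: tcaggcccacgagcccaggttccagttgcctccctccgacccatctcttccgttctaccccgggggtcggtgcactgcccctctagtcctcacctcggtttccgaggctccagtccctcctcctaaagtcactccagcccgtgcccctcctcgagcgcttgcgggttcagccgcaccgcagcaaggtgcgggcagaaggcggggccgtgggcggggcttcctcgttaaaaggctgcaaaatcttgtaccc
*Klk10*, chr7:43780804-43781053, + strand: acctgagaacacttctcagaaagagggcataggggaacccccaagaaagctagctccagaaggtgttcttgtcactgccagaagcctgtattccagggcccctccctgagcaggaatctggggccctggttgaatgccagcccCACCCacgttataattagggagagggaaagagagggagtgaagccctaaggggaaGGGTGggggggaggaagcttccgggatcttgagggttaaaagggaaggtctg
*Klk6*, start nearer the left end of the cluster, chr7:43824294-43824543, + strand: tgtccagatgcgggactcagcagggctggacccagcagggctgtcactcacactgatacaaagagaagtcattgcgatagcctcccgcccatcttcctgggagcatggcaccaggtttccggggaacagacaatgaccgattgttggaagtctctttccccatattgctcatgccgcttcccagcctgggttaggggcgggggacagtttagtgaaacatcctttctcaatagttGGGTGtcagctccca
*Klk6*, other start, chr7:43825200-43825449, + strand: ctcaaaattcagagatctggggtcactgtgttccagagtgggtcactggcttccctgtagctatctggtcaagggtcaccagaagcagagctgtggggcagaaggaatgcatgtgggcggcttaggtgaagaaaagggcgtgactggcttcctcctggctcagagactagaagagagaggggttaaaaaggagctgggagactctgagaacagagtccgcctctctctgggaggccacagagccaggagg
Around each start, 300 bases (250 before, 50 after) were searched on both strands for 4 motifs, none of which contains another. CACCC was found in 8 of the 11 kallikrein windows, against 57.5% of all 32851 windows in the table. The window of *Klk8* holds none, and that of *Klk10* holds 2. No kallikrein window holds TGANTCA, the AP-1 motif (7.81% of all windows), AGGTCA, a binding motif of nuclear receptors (16.3%), or TATAAA (13.6%). A missing match says only that these letters are not in the window.

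Summed over the 4 sections, kallikrein transcripts lay almost wholly in the epidermal regions, but control skin differed. Of the 2130 UMIs of the 9 genes, 2037 were in the outer regions, 79 in the middle regions, 10 in the muscle regions and 4 in the *Scd1*-rich region. In control skin 51 of 74 were outer and 22 were in the middle regions. Their levels there were 282 CPM (210 to 371) and 264 CPM (165 to 400). The outer regions also held most UMIs of all genes, by the shares above, so the levels per region follow. *Klk6*, a trypsin-like protease first known from brain, supplied 1215 of the 2130 kallikrein UMIs. Its level in the outer regions was 279.9 CPM in UVR plus HPR skin, 238 CPM in UVR plus retinol skin, 268 CPM in UVR skin and 99.6 CPM in control skin. In the middle regions the same gene had 170 CPM (interval 105 to 259), 92.0 CPM (42.1 to 175), 124 CPM (65.9 to 212) and 132 CPM (65.9 to 236), in that order of sections. The outer and middle intervals were thus apart in UVR plus retinol skin and in UVR skin. In UVR plus HPR skin the outer interval (248 to 314.5 CPM) overlapped the middle one, as it did in control skin (59.0 to 157 CPM). The muscle regions held 5 *Klk6* UMIs in all, 2 each in UVR plus HPR and UVR skin and 1 in UVR plus retinol skin.

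**Figure D1:**
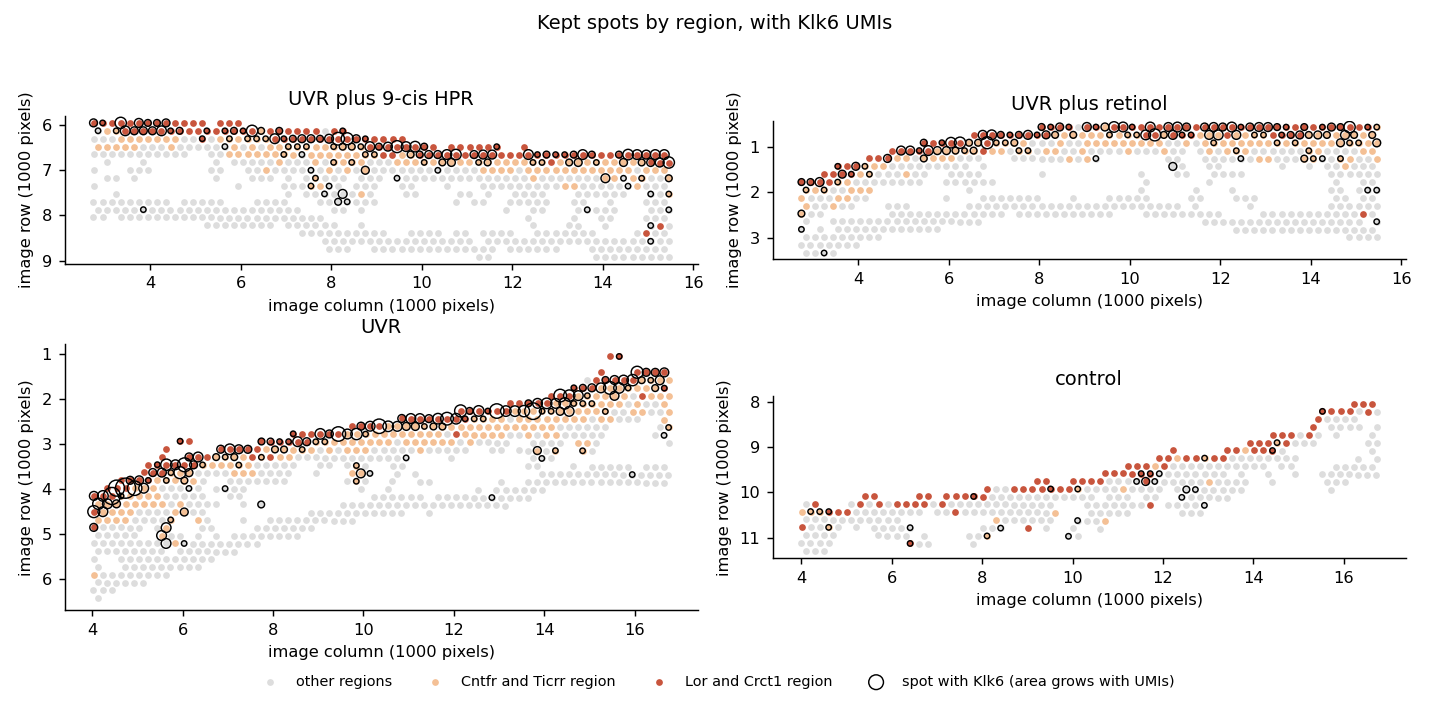
Kept spots of each section by image column and row (in pixels, scaled as on the axes), coloured by region, with black circles around spots that held *Klk6*, whose area grows with the UMIs in the spot. The circles follow the outer edge of the 3 irradiated sections, with up to 24 UMIs in a spot of UVR skin, and are few and small in control skin, with up to 3.

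A *Klk6* UMI was seen in 45.4% of outer spots in UVR plus HPR skin, 54.9% in UVR plus retinol skin, 49.3% in UVR skin and 16.7% in control skin. These spots had median depths of 3426, 4740.5, 5391.5 and 1583.5 UMIs, and the shares were recomputed with each spot thinned to 500 UMIs, which left out 25, 3, 10 and 9 shallower spots. The thinned shares were 12.3% (8.09% to 17.6%), 11.9% (7.80% to 17.2%), 12.5% (8.81% to 17%) and 5.75% (1.89% to 12.9%). At equal depth all 4 intervals overlapped over the outer regions as a whole, whose mix of regions differs between sections. Inside the *Lor* region the thinned shares were 23.5% (14.8% to 34.2%), 25.6% (16.4% to 36.8%), 23.5% (14.8% to 34.2%) and 4.23% (0.88% to 11.9%), and the control interval lies below those of the 3 irradiated sections. Muscle spots, which should lack the gene, gave 1 of 112 spots in UVR plus HPR skin, 0.893%. They gave 0 of 88 in UVR plus retinol skin, which allows up to 3.41%, 0 of 140 in UVR skin (up to 2.14%) and 0 of 16 in control skin (up to 18.8%). Their median depths before thinning were 555, 711, 1679 and 1332 UMIs.

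Within the epidermis, several kallikreins were higher in the *Lor* region than in the *Cntfr* region. Over all sections together the ratio was 4.75 (2.94 to 7.91) for *Klk7*, the chymotrypsin-like enzyme of shedding, 4.25 (2.75 to 6.71) for *Klk9* and 3.40 (3.0 to 3.85) for *Klk6*. *Klk13* (2.61, 1.91 to 3.6), *Klk5* (2.42, 1.28 to 4.69), *Klk11* (2.10, 1.51 to 2.94) and *Klk8* (1.72, 1.3 to 2.28) had smaller ratios, each with an interval above 1. These ratios moved when UVR skin was left out. Without it *Klk5* was at 0.967 (0.24 to 3.54) on 5 and 7 UMIs and *Klk8* at 1.54 (0.91 to 2.63), with intervals that include 1. *Klk13* was then at 4.54 (2.60 to 8.33) and *Klk9* at 6.58 (2.87 to 17.6). *Klk6*, *Klk7*, *Klk9*, *Klk11* and *Klk13* kept intervals above 1 with any 1 section left out. Leaving sections out was added after the values were seen. *Klk10*, whose protein lacks strong protease activity, stood at 1.26 (0.81 to 1.94). For *Klk14* (9 against 6 UMIs) and *Spink5* (12 against 12 UMIs) the intervals included 1. The sections contribute unequally to these sums, and UVR skin supplied the most UMIs.

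The position of *Klk6* differed in control skin. It had 515 CPM in the *Lor* region and 101 CPM in the *Cntfr* region of UVR plus HPR skin, a ratio of 5.09 (3.80 to 6.91). UVR plus retinol skin had 438 and 121 CPM, a ratio of 3.62 (2.80 to 4.71), and UVR skin 512 and 155 CPM, a ratio of 3.30 (2.78 to 3.92). Control skin had 81.4 and 154 CPM, a ratio of 0.53 (0.19 to 1.61) on 11 and 7 UMIs, and its interval lies below the other 3. Also below 1 in control skin were *Klk10* at 0.22 (0.019 to 1.96) and *Klk11* at 0.59 (0.15 to 2.75). Their intervals overlap those of the irradiated sections. *Klk7* at 1.68 (0.19 to 79.7) and *Klk8* at 1.01 (0.18 to 10.2) were not below 1 there. *Klk13* was the other gene whose ratio stood apart, an observation made after its values were seen. It had 82.5 CPM in the *Lor* region and 8.05 CPM in the *Cntfr* region of UVR plus retinol skin, a ratio of 10.2 (4.27 to 29.7). In UVR skin the same pair was 72.4 and 35.0 CPM, a ratio of 2.07 (1.37 to 3.13), and in UVR plus HPR skin 46 and 19.2 CPM, a ratio of 2.40 (1.09 to 5.53). The interval of UVR plus retinol skin lies above that of UVR skin and overlaps that of UVR plus HPR skin.

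**Figure D2:**
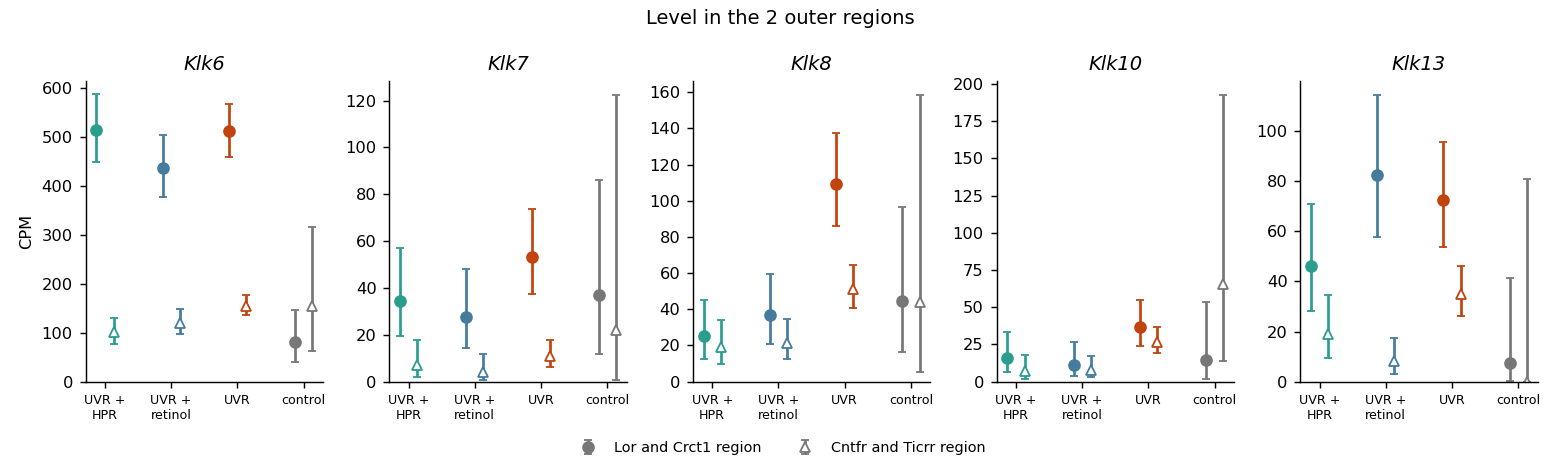
CPM of 5 kallikreins in the *Lor* and *Crct1* region (filled circles) and the *Cntfr* and *Ticrr* region (open triangles) of each section, with exact Poisson 95% intervals. *Klk6* is higher in the *Lor* region in the 3 irradiated sections but not in control skin, and *Klk13* of UVR plus retinol skin is at 82.5 against 8.05 CPM.

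The shedding proteases were sparse. *Klk5*, the trypsin-like enzyme that activates the KLK7 precursor, had 8 UMIs in UVR plus HPR skin, 4 in UVR plus retinol skin, 32 in UVR skin and 1 in control skin. *Klk7* had 20, 15, 52 and 11 UMIs in the same order, and *Klk14*, a further trypsin-like enzyme, had 2, 1, 12 and 0. The floor of 3 UMIs puts an absent gene at no more than 9.20 CPM in control skin, so a level like the 4.69 CPM of *Klk14* in UVR skin would lie under that floor. *Spink5*, which lies apart from the cluster on chromosome 18 (43959545 to 44022487), had 7, 6, 9 and 2 UMIs, or 6.95, 5.08, 4.22 and 11.1 CPM in the outer regions. The 4 *Spink5* intervals overlap, and no difference in the inhibitor was detectable at this depth.

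The other members were better covered in the irradiated sections. *Klk8* (neuropsin, a trypsin-like protease of brain and skin) had 22 outer UMIs in UVR plus HPR skin, 32 in UVR plus retinol skin, 149 in UVR skin and 8 in control skin. These are 21.8, 27.1, 69.8 and 44.3 CPM, and the interval of UVR skin (59.1 to 82.0 CPM) lies above those of both treated sections. *Klk10* had 11, 11, 64 and 5 outer UMIs, or 10.9, 9.31, 30.0 and 27.7 CPM, with UVR skin again above both treated sections. *Klk13*, a trypsin-like protease, had 31, 42, 100 and 1 outer UMIs, or 30.8, 35.6, 46.9 and 5.53 CPM. *Klk9* had 22, 18, 65 and 1 outer UMIs, or 21.8, 15.2, 30.5 and 5.53 CPM. *Klk11*, a trypsin-like protease also called hippostasin, had 26, 39, 75 and 11, or 25.8, 33.0, 35.1 and 60.9 CPM, and like *Klk7* it read highest in control skin. With 51 kallikrein UMIs in its outer regions, control skin gives wide intervals for every member.

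**Figure D3:**
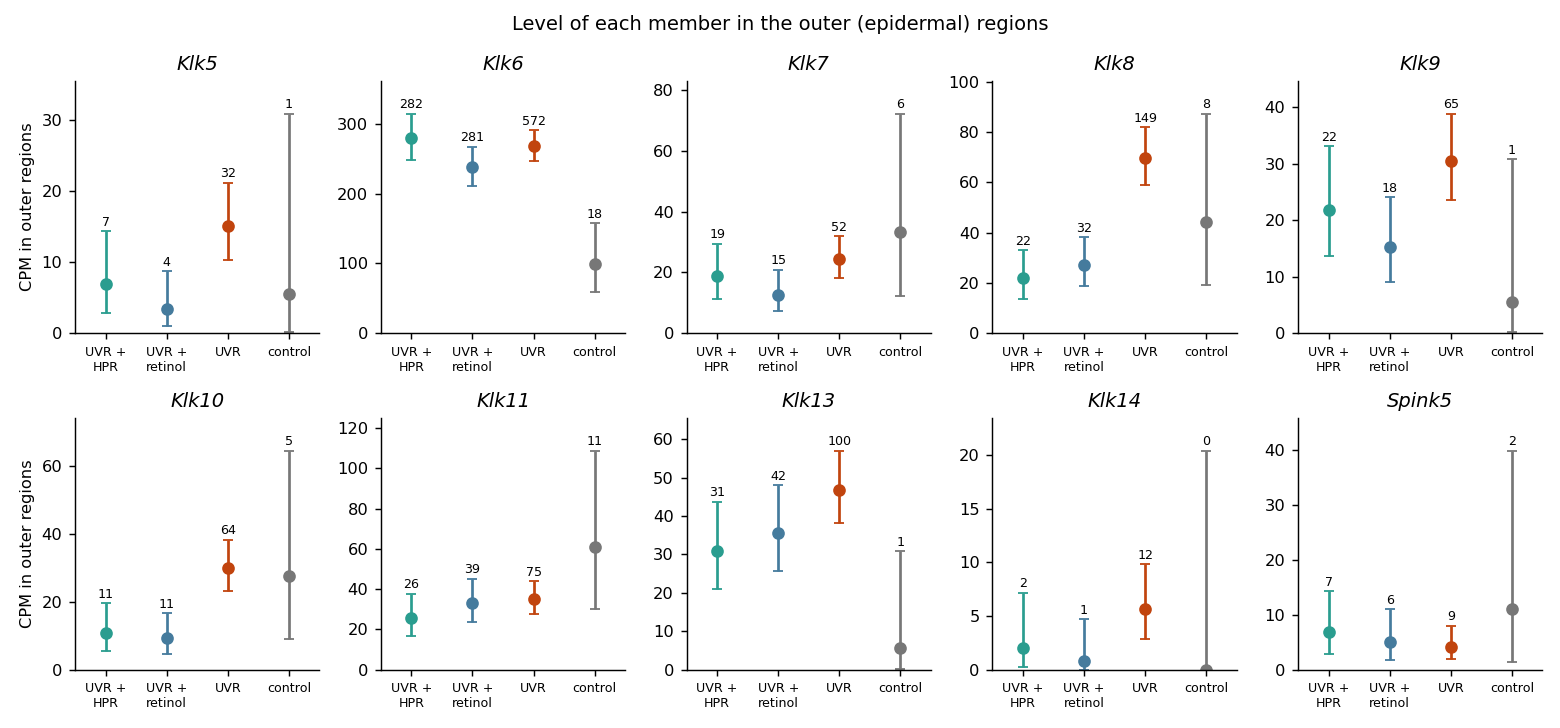
CPM of each member in the outer regions of the 4 sections, with exact Poisson 95% intervals and the UMIs above each point, on axes that differ between genes. *Klk8* and *Klk10* are lower in both treated sections than in UVR skin, *Klk6* is similar in the 3 irradiated sections at 238 to 279.9 CPM, and control intervals are wide.

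UVR skin against control skin asked what irradiation changed. *Klk6* and *Klk13* were higher in UVR skin, both over the whole section and in the outer regions, with intervals above 1. A ratio needed 50 UMIs in the pair of sections together, which 7 members had, and 2-fold is the size counted. Over the whole section 4 of 7 were at least 2-fold higher and 0 were 2-fold lower, against 13.3% and 11.2% of 3753 genes. *Klk6* had 230 CPM in UVR skin and 92.0 CPM in control skin, a ratio of 2.5 (1.73 to 3.74). *Klk8* had a ratio of 2.12 (1.09 to 4.74). *Klk13* rested on 101 UMIs under UVR against 1 without it, a ratio of 12.9 (2.26 to 513), and *Klk9* on 65 and 1, a ratio of 8.28 (1.44 to 332). A single control UMI sets each of the last pair, so their size is not fixed by these data. All 7 compared members reached 50 UMIs only through UVR skin, where the 4 counted ones are high, so the count is a description and not support. When each spot was thinned to 500 UMIs, which weights deep outer spots less, the log2 ratio of *Klk6* was 0.31 in place of 1.32.

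In the outer regions alone, 3 of 7 members were at least 2-fold higher and 0 lower, against 19.4% and 8.7% of 2989 genes, whose median log2 ratio was 0.17. *Klk6* had a ratio of 2.69 (1.69 to 4.58) there, *Klk13* 8.47 (1.49 to 338) and *Klk9* 5.51 (0.95 to 221). *Klk8* was at 1.58 (0.78 to 3.72), *Klk10* at 1.08 (0.44 to 3.45), *Klk7* at 0.734 (0.32 to 2.09) and *Klk11* at 0.578 (0.31 to 1.21). For these 4 genes and *Klk9*, 5 of the 7, counting error alone covers a ratio of 1. All 7 again reached 50 UMIs only through UVR skin, so the count of 3 higher is a description and not support. The mix of outer spots differed, with 31.7% of outer UMIs from the *Lor* region in UVR skin and 74.8% in control skin. Inside the *Lor* region 3 members reached 50 UMIs, all mainly through UVR skin, and 3 were 2-fold higher, where 17.9% of 1461 genes were. *Klk7* (36 against 5 UMIs, 1.44, 0.56 to 4.70) and *Klk11* (38 against 7 UMIs, 1.09, 0.48 to 2.88) did not reach 50 UMIs. There *Klk6* had 346 UMIs under UVR and 11 in the control section, a ratio of 6.29 (3.47 to 12.7), *Klk8* a ratio of 2.47 (1.08 to 6.93) and *Klk13* 9.79 (1.68 to 395). In that region 15% of genes were 2-fold lower and 0 members. Inside the *Cntfr* region 0 of 3 members were counted as higher or lower, where 16.5% of 2445 genes were higher and 9.28% lower. *Klk6* had a ratio of 1.0 (0.48 to 2.54) there and *Klk8* 1.17 (0.31 to 9.86). *Klk13*, with 51 UMIs under UVR and 0 in the control section, has no ratio, since its UVR level of 35.0 CPM is below what 3 control UMIs would give. Markers of other tissue also differed in the outer regions. Sebaceous markers summed to 66.5 CPM in UVR skin and 310 CPM in control skin, with 9 and 4 of 9 detected. *Mgst1*, *Awat1*, *Awat2*, *Elovl3* and *Pparg* were at 0 in control skin. Macrophage and dendritic markers summed to 107 and 786 CPM, with 6 and 5 of 7 detected, *Lyz2* at 0 in both and *Trem2* at 0 in control skin. Fibroblast markers summed to 218 and 420 CPM, with 7 and 4 of 7 detected and *Lum*, *Pdgfra* and *Fbn1* at 0 in control skin. Plasma cell markers summed to 91.9 and 188 CPM, with 4 and 3 of 4 detected and *Mzb1* at 0 in control skin. Cornified markers summed to 29618.6 and 92088.4 CPM, with 8 of 8 detected in both. The keratinocyte sum given above went the other way. The part of these lists in the kallikrein ratios was not tested.

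Each treated section was set against UVR skin, the comparison that asks what the retinoids changed in irradiated skin. *Klk8* and *Klk10* were lower in both treated sections, and *Klk6* was close to its UVR level in both. Exchanging the groups, as the spot grid would, puts *Klk6* in the outer regions at a log2 ratio of 1.26 in UVR plus HPR skin and 1.49 in UVR plus retinol skin, each over UVR skin, and leaves *Klk8* and *Klk10* with too few UMIs to compare. In UVR plus HPR skin 2 of 7 members were at least 2-fold lower over the whole section (11.2% of 4173 genes) and 0 higher (3.83%). In its outer regions 2 were lower (12% of 3449 genes) and 0 higher (3.31%). *Klk8* was 3.20-fold lower there (2.04 to 5.26) and *Klk10* 2.75-fold lower (1.44 to 5.78). The *Klk6* ratio was 1.04 (0.90 to 1.21). The other 4 compared members were between 0.657 for *Klk13* (0.42 to 0.99) and 0.774 for *Klk7* (0.43 to 1.33).

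In UVR plus retinol skin 2 of 7 members were also at least 2-fold lower over the whole section (10.3% of 4288 genes) and 0 higher (4.76%). In the outer regions the counts were again 2 lower (11.1% of 3568 genes) and 0 higher (5.58%). *Klk10* was 3.22-fold lower there (1.69 to 6.77) and *Klk8* 2.58-fold lower (1.75 to 3.90). *Klk9*, at a ratio of 0.50 just short of 2-fold (0.28 to 0.85), and *Klk7*, 1.92-fold lower (1.06 to 3.67), missed the size counted. Dividing by UMI totals without the 50 most abundant genes takes both past it, for 4 members in all. *Klk5* had too few UMIs to be counted, at 4 in UVR plus retinol skin and 32 in UVR skin, 4.43-fold lower (1.57 to 17.2). *Klk6* had a ratio of 0.887 (0.77 to 1.03), *Klk11* 0.939 (0.62 to 1.40) and *Klk13* 0.759 (0.52 to 1.10). Both treated sections share the UVR section as their denominator, so the 2 sets of values are not independent. Here too, all compared members but *Klk6* reached 50 UMIs only through UVR skin, so the counts of members are a description and not support.

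**Figure D4:**
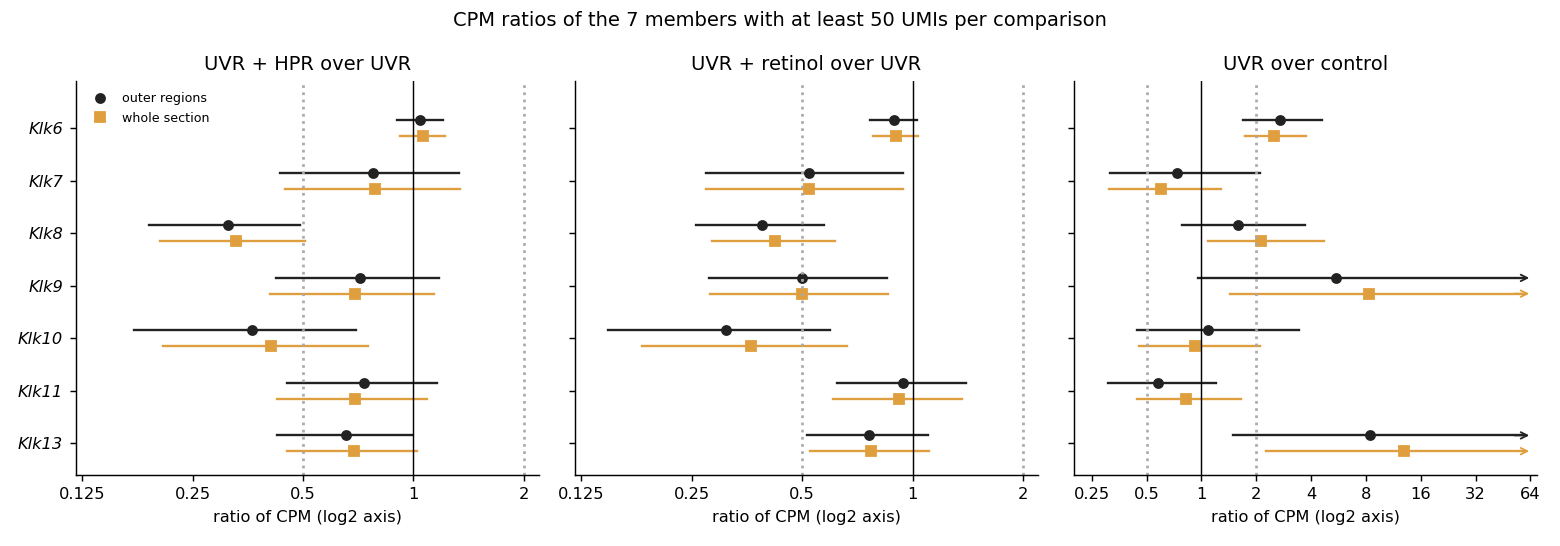
Ratio of CPM on a log2 axis, with exact 95% intervals, for the 7 members that reached 50 UMIs, in the outer regions (circles) and the whole section (squares). Dotted lines mark 2-fold and arrows mark intervals that run past the axis. *Klk8* and *Klk10* lie beyond 2-fold lower in both treated sections, and *Klk6* lies near 1 there and at 2.69 in UVR over control skin.

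The left and right sides of each image gave a view of the spread within a section, though sides are not replicates. *Klk8* in the outer regions was at 15.2 and 27.5 CPM on the left and right sides of UVR plus HPR skin, 35.2 and 20.3 CPM in UVR plus retinol skin, 68.2 and 70.9 CPM in UVR skin and 34.2 and 53.8 CPM in control skin. Every treated side was below both UVR sides. The interval of the left side of UVR plus retinol skin (21.2 to 54.9 CPM) overlapped that of the left side of UVR skin (51.8 to 88.1 CPM). *Klk10* was at 13 and 9.16 CPM, 3.70 and 14 CPM, 34.1 and 27.3 CPM, and 45.5 and 10.8 CPM in the same order. These rest on 6 and 5, 2 and 9, 29 and 35, and 4 and 1 UMIs. The treated sides were again below both UVR sides, but intervals overlapped. That of the right side was 6.42 to 26.6 CPM in UVR plus retinol skin and 19.0 to 37.9 CPM in UVR skin. The sides hold the same UMIs as the section ratios, so their order is a description and not support. *Klk6* was at 284 and 277 CPM, 231 and 243 CPM, 333 and 225 CPM, and 102 and 96.8 CPM. The UVR sides of *Klk6* differed from each other by more than either treated section differed from UVR skin.

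By region, *Klk8* was lower in both epidermal regions of both treated sections. In the *Lor* region it was 4.33-fold lower in UVR plus HPR skin (2.28 to 9.04) and 2.98-fold lower in UVR plus retinol skin (1.72 to 5.49), each against UVR skin. It was the 1 member past 2-fold there, of 6 and 5 compared, where 9% and 9.56% of genes were lower and 5.09% and 10.4% higher. For *Klk8* in the *Cntfr* region the figures were 2.68-fold lower in UVR plus HPR skin (1.42 to 5.6) and 2.40-fold lower in UVR plus retinol skin (1.38 to 4.4). *Klk6* in the *Cntfr* region was 1.53-fold lower in UVR plus HPR skin (1.14 to 2.08), while its ratio in the *Lor* region was 1.0 (0.85 to 1.19). *Klk13* in the *Cntfr* region had 6 UMIs in UVR plus retinol skin and 51 in UVR skin, 4.35-fold lower (1.86 to 12.4), and a ratio of 1.14 (0.72 to 1.79) in the *Lor* region. In the *Cntfr* region 1 of 3 compared members was 2-fold lower in UVR plus HPR skin (11.9% of 2843 genes, and 3.73% higher), and 2 of 4 in UVR plus retinol skin (10.8% of 2974 genes, and 5.08% higher). The members counted as lower in either region, *Klk8* and *Klk13*, reached the UMIs needed for a ratio only through UVR skin. The counts of members by region are therefore a description and not support. Fibroblast markers in the outer regions summed to 931 CPM in UVR plus HPR skin, 462 CPM in UVR plus retinol skin and 218 CPM in UVR skin, with 5, 5 and 7 of 7 detected and *Lum* and *Pdgfra* at 0 in both treated sections. Macrophage and dendritic markers summed to 431, 429 and 107 CPM in the same order, with 6, 5 and 6 of 7 detected, *Lyz2* at 0 in all 3 and *Trem2* at 0 in UVR plus retinol skin. Hair follicle markers summed to 24.8, 70.3 and 11.7 CPM, with 3, 5 and 5 of 9 detected and *Krt25*, *Krt27*, *Krt71* and *Lgr5* at 0 in all 3. Skeletal muscle markers summed to 312, 243 and 878 CPM, with 8, 8 and 9 of 9 detected, and the keratinocyte sum given above was also lower in both treated sections. The part of these 5 lists in the lower kallikrein levels was not tested.

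UVR plus HPR skin and UVR plus retinol skin can be set side by side, but the doses differ, at 0.03% and 0.1%. *Klk6* had 244 CPM in UVR plus HPR skin and 206 CPM in UVR plus retinol skin over the whole section, and 279.9 and 238 CPM in the outer regions. *Klk8* had 21.8 and 27.1 CPM in the outer regions, *Klk11* 25.8 and 33.0 CPM, and *Klk13* 30.8 and 35.6 CPM. The ratio's interval excludes 1 for *Klk6* over the whole section, at 1.18 (1.004 to 1.39), and includes it for *Klk6* in the outer regions, at 1.18 (0.99 to 1.39), and for the other 3 in both. None of these 4 genes, the members that reached 50 UMIs in this pair, passed 2-fold. In UVR plus HPR skin 1.25% of 2720 genes were 2-fold higher and 3.16% lower in the outer regions, and 1.24% and 2.36% of 3305 genes over the whole section. In the *Lor* region *Klk13* had 46 CPM in UVR plus HPR skin (interval 28.1 to 71.0) and 82.5 CPM in UVR plus retinol skin (57.8 to 114), a ratio of 0.558 (0.31 to 0.99), and 0 of 2 compared members passed 2-fold there, where 0.95% of genes were higher and 3.05% lower. In the *Cntfr* region 0 of 1 did, where 1.49% of genes were higher and 2.98% lower.

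The balance among kallikreins followed from these values. *Klk6* made up 67.2% of kallikrein UMIs in UVR plus HPR skin (62.6% to 71.5%), 63.5% in UVR plus retinol skin (58.9% to 67.9%), 51.5% in UVR skin (48.5% to 54.4%) and 40.5% in control skin (29.3% to 52.6%). The intervals of both treated sections lie above that of UVR skin. *Klk8* made up 5.29% (3.42% to 7.76%), 7.61% (5.36% to 10.4%), 13.1% (11.2% to 15.2%) and 12.2% (5.71% to 21.8%) in the same order. The 8 kallikreins other than *Klk6*, a grouping made after the values were seen, summed to 139 CPM in the outer regions of UVR plus HPR skin, 137 CPM in UVR plus retinol skin, 257 CPM in UVR skin and 183 CPM in control skin. The last interval (126 to 256 CPM) overlaps all 3 others.

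**Figure D5:**
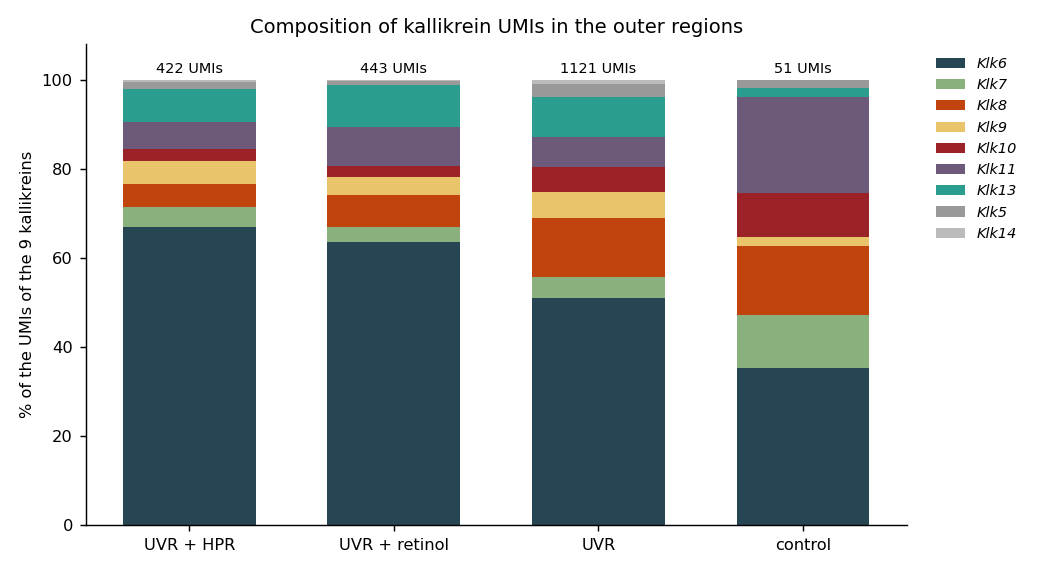
Share of each kallikrein among the UMIs of the 9 genes in the outer regions of each section, with the number of UMIs above the bar. Probes of different genes bind differently, so shares are read across sections for 1 gene: that of *Klk6* is 66.8% in UVR plus HPR skin, 63.4% in UVR plus retinol skin, 51.0% in UVR skin and 35.3% in control skin, where the total is 51 UMIs.

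Genes that work with the kallikreins were described from lists. Over all genes compared in the outer regions, 12% were 2-fold lower and 3.31% higher in UVR plus HPR skin, 11.1% and 5.58% in UVR plus retinol skin, and 8.7% and 19.4% in UVR over control skin, and the counts below are to be read against these. Of 10 listed substrates and targets in the files, 5 could be compared in the outer regions. In UVR plus HPR skin against UVR skin 3 of 5 were at least 2-fold lower and 0 higher, with a median log2 ratio of -1.27 beside -0.18 over all genes. *Cdsn*, the corneodesmosome protein corneodesmosin, was 3.47-fold lower (3.21 to 3.75), and the desmosomal cadherins *Dsg1a* and *Dsg1b* were 3.19-fold and 2.41-fold lower. UVR plus retinol skin had 4 of 5 lower and 0 higher, with a median of -1.36 beside -0.05. *Cdsn* was 5.20-fold lower there (4.77 to 5.69), *Dsg1a* 5.08-fold, *Dsc1* (a desmosomal cadherin) 2.57-fold and *Dsg1b* 2.25-fold. Filaggrin (*Flg*) went the other way in UVR plus HPR skin, at a ratio of 1.48 (1.32 to 1.66), and was at 0.772 (0.68 to 0.88) in UVR plus retinol skin. UVR against control skin gave 2 of 5 higher, *Dsg1b* at 4.48 (2.54 to 8.71) and *Cdsn* at 2.15 (1.88 to 2.49), and 1 lower, *Flg*, 3.99-fold (3.44 to 4.61). The 7 compared kallikreins had medians of -0.48, -0.94 and 0.66 in these 3 comparisons. Among the counted substrates, *Dsc1* in UVR plus retinol skin reached the UMIs needed for a ratio only through UVR skin. The same holds for *Dsg1b* in UVR against control skin. Their part in the counts is a description and not support.

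Among the protease inhibitors 6 of 11 could be compared in the outer regions, and *Spink5* was not one of them. UVR plus HPR skin had 3 of 6 at least 2-fold lower and 0 higher than UVR skin: *Wfdc12*, a whey-acidic-protein inhibitor (2.81-fold), *Slpi*, the secretory leukocyte protease inhibitor (2.70-fold), and *Cst6*, the cystatin of cathepsins (2.05-fold). UVR plus retinol skin also had 3 lower and 0 higher: *Wfdc12* (4.23-fold), *Serpina12* (vaspin, an inhibitor of KLK7, 4.22-fold) and *Cst6* (3.08-fold). UVR against control skin had 2 higher, *Slpi* at 7.03 (1.92 to 58.5) and *Wfdc12* at 4.53 (1.22 to 37.9), each on 2 control UMIs. It had 2 lower, *Cst6* 4.84-fold (3.70 to 6.29) and *Serpina12* 2.90-fold (1.53 to 5.17). The median log2 ratios of the list were -0.49, -1.22 and -0.16 in the order of these comparisons. The inhibitors counted as lower in the treated sections reached the UMIs needed for a ratio only through UVR skin, where they are high. So did the 2 counted as higher in UVR skin than in control skin. These counts are therefore a description and not support. *Spink12*, a gene of the same inhibitor family as *Spink5*, was singled out after its values were seen: all of its 21 UMIs lay in UVR skin. Setting the empty sections to 3 UMIs, it was at least 3.31-fold lower in UVR plus HPR skin and at least 3.88-fold lower in UVR plus retinol skin, in the outer regions.

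Of 14 listed activators and other epidermal proteases, 6 were compared between UVR plus HPR and UVR skin and 0 passed 2-fold in either direction. In UVR plus retinol skin 2 of 8 were lower, *Ctsd* (cathepsin D, 2.43-fold) and *Asprv1* (a protease of filaggrin processing, 2.19-fold), and 0 higher. In UVR against control skin 2 of 6 were higher, *Blmh* (bleomycin hydrolase, 62 and 1 UMIs) and *Asprv1* at 2.59 (1.24 to 6.52), and 1 lower, *Ctsl* (cathepsin L, 2.10-fold). *Blmh* and *Asprv1* reached the UMIs needed for this ratio only through UVR skin, so the count of 2 higher is a description and not support. Cornified envelope genes, which build the tough shell of the dead cell, had 1 of 12 higher in UVR plus HPR skin than in UVR skin, *Hrnr* (hornerin) at 3.33, and 2 lower, *Cdsn* and *Alox12b* (a lipoxygenase of the lipid barrier, 2.2-fold). In UVR plus retinol skin 0 of 11 were higher and 2 lower, *Cdsn* and *Alox12b* (3.35-fold). *Alox12b* reached the UMIs needed for that ratio only through UVR skin. In UVR against control skin 2 of 9 were higher, *Tgm1* (transglutaminase, 2.75) and *Cdsn*, and 3 lower, *Lor* (loricrin, 4.74-fold), *Flg* and *Hrnr* (3.82-fold). Median log2 ratios were -0.12, -0.37 and -0.28. The counts of 2 of 12 lower, 2 of 11 lower and 2 of 9 higher are near the shares over all genes. No gene of the list of other kallikreins reached 50 UMIs in any comparison, and the genes of that list had at most 3 UMIs over all sections.

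For *Klk6* and *Klk8*, the members with at least 200 UMIs, the genes with the most similar pattern were ranked over 19 section and region combinations. The measure was Pearson's r of log2(CPM + 10) over those 19 combinations, and the 2381 genes with at least 200 UMIs were ranked by it. Closest to *Klk6* were *Dedd2*, a death-effector-domain gene (r = 0.942), *Cpeb2*, a regulator of mRNA translation (0.934), and *Hip1r*, a gene of endocytosis (0.924). Closest to *Klk8* were *Erbb2*, a receptor tyrosine kinase of the EGF receptor family (0.920), *Tent5b* (0.879) and *Plekhn1* (0.871). The combinations share sections, depth and tissue layers, so these values only describe the likeness.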

How the data were processed

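The authors deposited unnormalized UMI counts for each gene in each spot. The submitters' processing notes name Space Ranger 2.0.0, Seurat 4.1.0 and the mm10 build, and give no role for each. Libraries came from the probe kit for fixed tissue, applied to fresh-frozen sections, per the labels' protocols. Counts and spot positions were used, and each area was divided into its 2 sections by image row, in the empty band between them. The members, lists, region rule and comparisons were chosen with earlier results of these data known.

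Counts were summed over kept spots (at least 200 UMIs) and divided by the total to give CPM, with no pseudocount. Ratios needed at least 50 UMIs over both sections, and the size counted was 2-fold. Depth, from 326095 to 2558616 UMIs a section, sets the interval widths. An empty section was set to 3 UMIs, which makes the ratio a bound. Spots were clustered with scanpy 1.11.5: 2000 variable genes without 171 excluded genes (members, lists and related genes), 20 principal components, 15 neighbours and Leiden resolution 0.5. A region took the muscle, sebaceous or fibroblast layer whose markers had a median log2 fold of at least 2, and was otherwise called outer. That rule was set after clusters had been seen. All members are named, list genes past 2-fold may be named, and the 3 most alike genes are named for members with 200 UMIs. The calculations were tested on simulated counts. Python 3.11.15, numpy 2.4.6, scipy 1.17.1, pandas 2.3.3, igraph 0.11.9 and matplotlib 3.10.9 were used, and 17 alternative settings of the ratios between sections were tried, with sections left out of the region ratios as a later addition. No genome sequence was used, and promoter sequences are RefSeq's.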

Additional observations from a re-analysis of the deposited data

How the results depend on the processing

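Over 17 alternative settings of the ratios between sections, *Klk10* in both treated sections and *Klk8* in UVR plus HPR skin stayed at least 2-fold lower than in UVR skin wherever they could be compared, other than with the groups exchanged. *Klk8* in UVR plus retinol skin did so except in the left image side (log2 -0.96 in the outer regions, -0.87 over the section). *Klk6* in UVR over control skin stayed past 2-fold except over the whole section with spots thinned (log2 0.31). Counts that moved by over 1.5 times follow. For UVR plus retinol over UVR, members lower were 4 with a spot minimum of 100 UMIs and with all deposited spots (whole section), 4 with totals free of the 50 most abundant genes (whole section and outer regions), and 4 with the outer regions given equal weight. With a gene minimum of 100 UMIs, 1 was lower in each treated section, since only 4 members are compared. Thinning to 500 UMIs left at most 1 member to compare, and every such count was 0. The left sides gave 2 (whole section) and 1 (outer) members higher in UVR over control skin, 0 lower in UVR plus retinol skin and 1 in UVR plus HPR skin. The right sides gave 1 lower in UVR plus HPR skin. Fewer members reach 50 UMIs in one side.

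Exchanging the groups of each area, as the spot grid would, gave 0 members higher and 4 (whole section) or 3 (outer) lower in UVR over control skin. Log2 ratios there were -1.32 for *Klk6*, -1.09 for *Klk8*, -3.05 for *Klk9* and -3.69 for *Klk13* over the section, and -1.43, -2.46 and -3.08 for *Klk6*, *Klk9* and *Klk13* in the outer regions. Each treated section then had 1 member higher (*Klk6*) and 0 lower than UVR skin, with 1 or 2 members compared. The *Lor* to *Cntfr* region ratio of *Klk5* was 0.967 without UVR skin, against 2.42 over all sections. No paired analysis was possible because each group has 1 section. Depth of control skin limits every comparison with it.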

Other observations

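Spots with fewer than 200 UMIs, left out above, held few kallikrein UMIs. *Klk6* had 4 UMIs in 340 such spots of UVR plus HPR skin, 1 in 243 of UVR plus retinol skin, 6 in 292 of UVR skin and 8 in 126 of control skin. These are 105 CPM (28.7 to 270), 38.6 CPM (0.98 to 215), 213 CPM (78.3 to 464) and 508 CPM (219 to 1001). The control value was singled out after it was seen. It lies above the 92.0 CPM of the kept control spots, whose interval ends at 131 CPM, and its 8 UMIs lay in 8 different spots.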
